A study of Mus musculus with 31 samples.

Results

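The loci described here are those of 10 genes of transforming growth factor beta (TGF-beta) signalling: Tgfb1, Tgfbr1, Tgfbr2, Tgfbr3, Smad2, Smad3, Smad4, Smad7, Ski and Skil. They were followed by ATAC-seq, in which the Tn5 transposase cuts open chromatin, in spleen regulatory T cells (Tregs), sorted from C57BL/6 mice that carry an RFP-FoxP3 reporter. A peak was taken when the gene list of its deposited annotation held one of the 10 symbols, and 140 of the 104979 peaks did. Because 50 of the 140 overlap another member peak, they form 95 separate regions. Smad3 has 38 peaks in 10 regions, Tgfbr3 22, Tgfbr2 18, Skil 15, Smad4 15, Ski 13, Smad7 8, Tgfbr1 5, Smad2 3 and Tgfb1 3.

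The mice had received 20 µg of FP, which the labels give as mIL-2/CD25, 5 µg of mIL-2 (IL2) or 100 µL of PBS. There are 31 libraries in 10 groups: FP at 0.75, 16 and 72 h (3 each) and at 168 h (4), IL2 at 0.75 and 16 h (3 each), and PBS at each of the 4 times (3 each). All groups share the strain and the reporter, and neither the age of the mice nor pooling of animals is stated. No label says that samples of a group came from separate animals, so p-values measure only the spread between these samples, which may be technical. FP and IL2 at one time share their PBS libraries. Each time has its own date in the sample identifiers, so a difference between times and one between dates cannot be told apart.

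Library totals ran from 7.39 M to 59.6 M counts, and the median count of a member peak in a library from 14 to 275. PBS replicate 1 and FP replicate 2 at 168 h correlated least with the other libraries. The Foxp3 promoter, a defining site of Tregs, had 10.4 to 28.4 CPM (counts-per-million) per kb over the 31 libraries, with a median of 17.2. The median was 7.38 CPM per kb at the promoter of the T cell gene Cd4 and 8.45 at that of Cd3e. It was 6.18 at the B cell gene Cd79a, 5.88 at the B cell gene Pax5 and 7.76 at the myeloid gene Spi1, so these promoter levels do not separate T cells from other cells. Ms4a1 and Csf1r had no peak.

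TGF-beta is secreted in a latent form and, once active, binds the type II receptor TGFBR2, which recruits and phosphorylates the type I receptor TGFBR1, while TGFBR3 (betaglycan) presents the ligand. TGFBR1 phosphorylates SMAD2 and SMAD3, which enter the nucleus with SMAD4. SMAD7 blocks the receptor in a feedback loop, and SKI and SKIL (SnoN) bind SMADs and bring co-repressors to their target genes. In T cells the pathway restrains activation and promotes Foxp3 in cells that become Tregs, and Tregs display latent ligand on their surface. IL-2 acts in these cells through STAT5, whose dimers bind the palindrome TTCNNNGAA.

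Of the 140 member peaks, 22 in 17 regions hold TTCNNNGAA, which reads the same on both strands: 9 peaks of Smad3, 4 of Ski, 4 of Tgfbr2, 2 of Tgfbr3, 2 of Skil and 1 of Smad7. That is 15.7% of member peaks, against 13.3% of all peaks. The 4 windows below surround these letters, in capitals, in the non-promoter peaks described most closely here. They are read from the GRCm38 reference on the plus strand, 5′ to 3′: the Smad3 intron at chr9:63721862-63721997, the Ski intron at chr4:155200758-155200886, the region upstream of Ski at chr4:155235321-155235449 and the Tgfbr3 intron at chr5:107164215-107164343.
Smad3 intron: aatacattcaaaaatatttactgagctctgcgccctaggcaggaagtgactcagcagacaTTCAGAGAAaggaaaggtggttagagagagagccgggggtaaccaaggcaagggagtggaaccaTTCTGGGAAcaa
Ski intron: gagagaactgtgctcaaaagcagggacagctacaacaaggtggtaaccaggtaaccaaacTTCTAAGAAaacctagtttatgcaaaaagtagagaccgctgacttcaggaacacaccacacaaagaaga
Ski upstream: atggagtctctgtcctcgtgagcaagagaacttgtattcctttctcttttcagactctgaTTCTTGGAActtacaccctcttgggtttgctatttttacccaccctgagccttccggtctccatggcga
Tgfbr3 intron: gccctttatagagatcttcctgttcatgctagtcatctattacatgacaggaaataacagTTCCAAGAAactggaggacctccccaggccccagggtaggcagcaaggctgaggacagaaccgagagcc
The Smad3 window holds 2 copies of the STAT5 letters and 1 match to the AP-1 letters TGANTCA, and each of the other windows holds 1 copy of the STAT5 letters. AP-1 letters were in 20 member peaks (14.3%, against 13.2% of all peaks). The SMAD palindrome GTCTAGAC was in 1, the Smad7 promoter (0.714%, against 0.457%), and the ETS letters CCGGAAGT in 2 (1.43%, against 2.60%). All 4 motifs were searched on both strands, and a match describes letters only.

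Pooled over the 12 PBS libraries, the promoters of Smad2, Smad4, Tgfbr1, Ski and Skil were the most open of the 10. A gene's promoter is here its promoter-class peak with the highest mean level in PBS, and levels are compared per kb of peak. The Smad2 promoter had a median of 29.8 CPM per kb (range 10.3 to 43.6), Smad4 29.1 (21.6 to 35.6), Tgfbr1 28.0 (14.5 to 35.5), Ski 26.8 (19.0 to 53.7) and Skil 24.8 (10.4 to 33.8). These 5 lay between percentile 83.0 and 88.0 of promoter-class peaks, and their ranges overlap, so neighbours in this order do not differ beyond the spread of libraries. The order among the 5 was not the same at each time. In PBS libraries the Ski promoter averaged 20.8 CPM per kb at 0.75 h, 35.2 at 16 h, 37.0 at 72 h and 27.2 at 168 h, and Tgfbr1 averaged 26.5, 30.5, 29.4 and 20.0 at the same times. Smad2 had the highest mean of the 10 at 0.75 and 168 h, and Ski at 16 and 72 h. A lower set held Smad7 at 14.8 CPM per kb (7.49 to 19.6), Tgfb1 at 13.9 (11.2 to 21), Tgfbr3 at 13.5 (7.76 to 18.9) and Tgfbr2 at 12.3 (5.46 to 17.7), again with overlapping ranges. The Smad3 promoter had the lowest median, 9.45 CPM per kb (5.39 to 17.1), percentile 43.2 of its class. The Tgfb1 peak lies 2514 bp inside the gene. Another promoter-class peak spans the Tgfb1 start, with its centre 132 bp inside the gene. It had the lower mean level in PBS and is not the one used here.

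Several genes carried strong sites away from their promoters. Among the non-promoter peaks with the highest mean CPM of each gene, an intron peak of Smad7 10053 bp into the gene had 26.1 CPM per kb, percentile 98.4 of intron peaks. The Ski intron peak shown above had 22.6 CPM per kb (percentile 97.4), and an intron peak of Tgfbr3 24399 bp into the gene had 12.9 (percentile 87.7). A narrow peak (459 bp) 37058 bp into Smad3 reached 22.2 CPM per kb (percentile 97.3), but was not that gene's highest by CPM. An intron peak of 1362 bp, 19901 bp into Smad3, had the higher median over the 31 libraries, 11.4 against 9.94 CPM. A peak 1619 bp upstream of Tgfbr1 had 15 CPM per kb, percentile 92.4 of intergenic peaks. The corresponding peaks of Smad2 and Smad4 had 3.67 and 4.85 CPM per kb. The deposited promoter class is wide, since 13 of 27 promoter-class member peaks have a centre over 2 kb from the gene start.

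**Figure D1:**
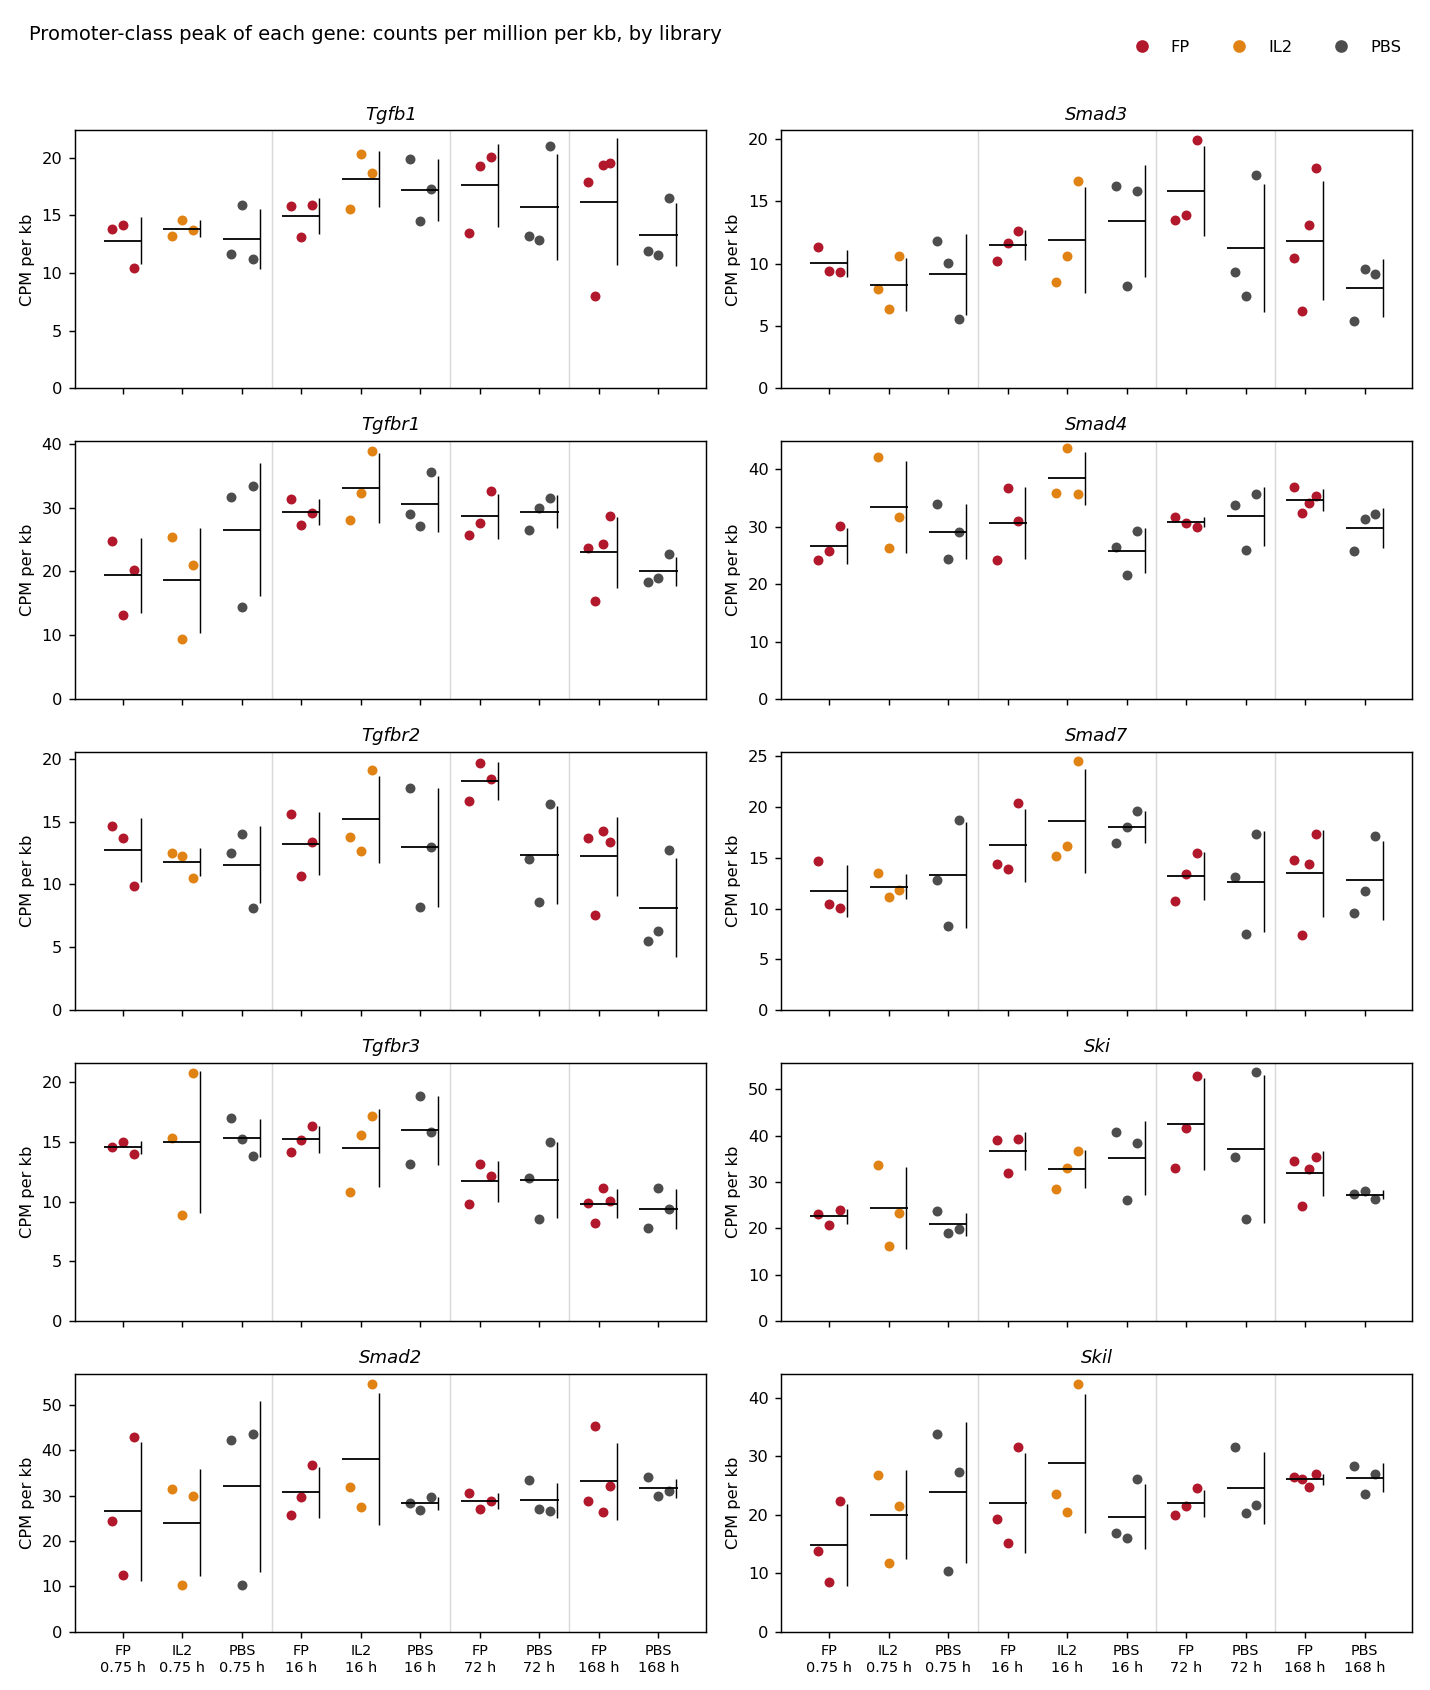
CPM per kb (y axis, linear from 0) of the promoter-class peak of each gene in every library, by group on the x axis. Points are libraries, horizontal lines are group means and vertical lines are ± 1 SD. At 0.75 h the replicate 2 libraries of all 3 groups are the lowest for Smad2, Skil and Tgfbr1.

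No promoter of the 10 passed the test in any comparison. Log2 fold changes, with their SE, are from edgeR's quasi-likelihood test, with p-values adjusted by Benjamini-Hochberg across the tested peaks and called under 0.05. Their 95% intervals set the size of difference these libraries leave possible. At 0.75 h after IL2 the 10 values against PBS ran from -0.51 for Tgfbr1 to 0.22 for Ski, and 7 of the 10 intervals lay between -1 and 1. At 0.75 h after FP they ran from -0.68 for Skil to 0.14 for Tgfbr2, with 7 intervals inside. At 16 h after FP they ran from -0.23 for Smad3 to 0.25 for Smad4, with all 10 intervals inside. FP against IL2 at 16 h gave -0.38 for Skil to 0.17 for Ski, again with all 10 inside.

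In the fits without a replicate block the intervals of 2 promoters left out 0 in comparisons with PBS. With the replicate number as a block for IL2 and PBS at 0.75 h, that of Tgfbr1 did too (-0.90 to -0.17, adjusted p = 0.261). The Smad4 promoter had 37.1, 45.2 and 36.8 CPM in IL2 libraries at 16 h, against 27.4, 22.3 and 30.3 CPM in PBS libraries. The IL2 libraries were all above the PBS ones, by 0.56 ± 0.20 on the log2 scale (adjusted p = 1.00). The value was 0.16 with the library total as a covariate. At 16 h after FP the same promoter had 25, 38.0 and 32.1 CPM, overlapping both. Smad4 encodes the SMAD shared by the branches of the pathway. All 14 tested Smad4 peaks were above 0 in this comparison, with a median log2 fold change of 0.62, against 0.00 for all tested peaks. Of the 15 Smad4 peaks, 10 overlap in 1 intron region and share reads. The median was 0.34 without IL2 replicate c2 and 1.69 with the library total as a covariate.

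The Tgfbr2 promoter, of the receptor that binds the ligand, had 25.8, 30.6 and 28.6 CPM in FP libraries at 72 h, against 18.7, 13.4 and 25.5 CPM in PBS libraries. The groups did not overlap, and the log2 fold change was 0.54 ± 0.22 (adjusted p = 0.930). At 168 h it had 21.2, 11.8, 22.2 and 20.8 CPM in FP libraries, against 8.49, 9.78 and 19.8 CPM in PBS libraries. The groups overlap, and FP over PBS was fitted at 0.55 ± 0.31 on the log2 scale (adjusted p = 0.899). The pair of libraries that stands apart held the lowest value of each group. FP replicate 2 had 11.8 CPM, which lowers this value, and PBS replicate 1 had 8.49 CPM, which raises it. In bulk cells, fewer cells with an open site and less opening per cell cannot be told apart.

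**Figure D2:**
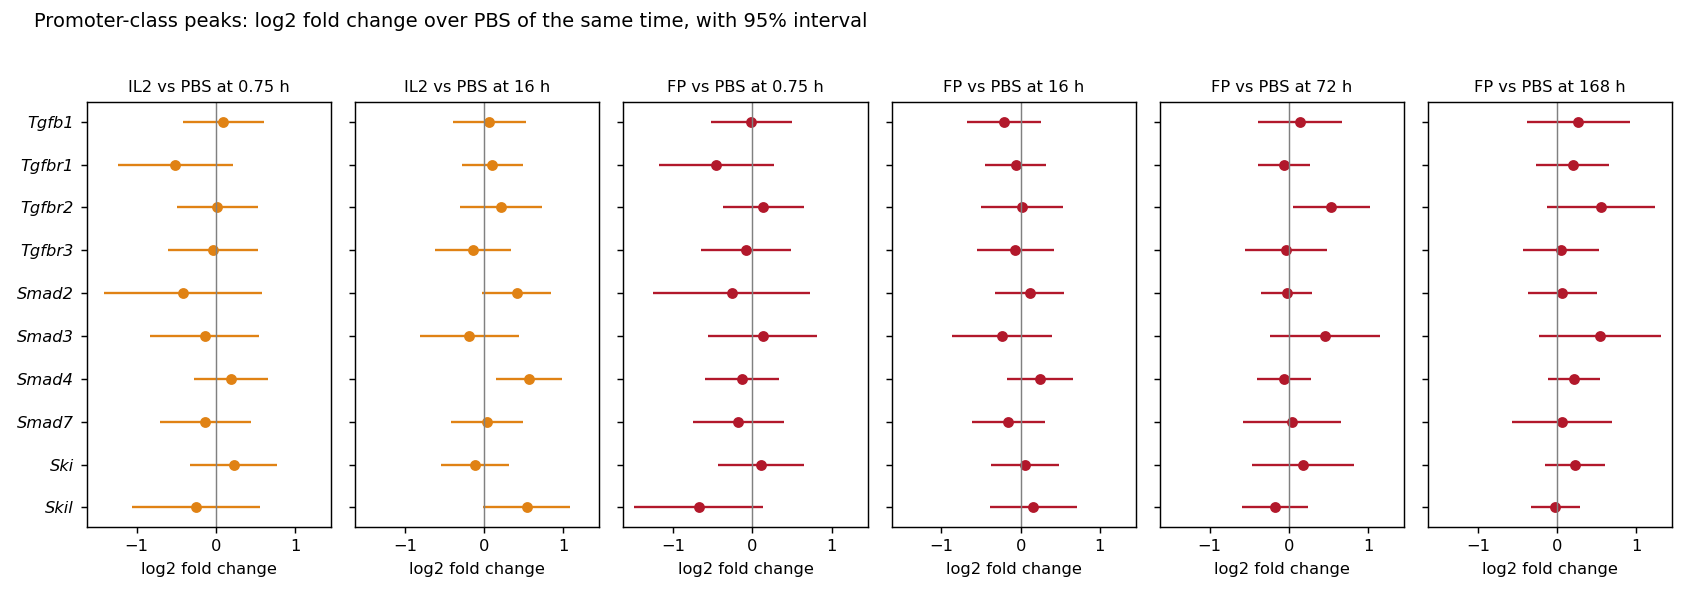
Log2 fold change over PBS of the same time (x axis) of the promoter-class peak of each gene (y axis), one panel a comparison. Points are fitted values without the replicate block, lines their 95% intervals, and 0 is marked. The intervals of Smad4 at 16 h after IL2 and of Tgfbr2 at 72 h after FP leave out 0, and neither passed the adjusted test.

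Over all their peaks, promoters included, the 10 genes had 0 peaks past the adjusted threshold in each of the 8 comparisons, by edgeR and by DESeq2. At 0.75 h after IL2, when 0.488% of the 100468 tested peaks rose and 0.00896% fell, 0 of 138 tested member peaks were called. With the replicate number as a block, which pairs IL2 and PBS libraries at 0.75 h, 0.937% of tested peaks rose and 0.0418% fell, and still 0 of 138 member peaks were called (lowest adjusted p = 0.261). The rises among all tested peaks were 0.00199% for FP at 0.75 h, 0.114% for FP at 16 h and 0.141% for FP against IL2 at 16 h, with 0 of 138 member peaks in each. IL2 at 16 h, FP at 72 h, FP at 168 h and FP against IL2 at 0.75 h called 0.0% of tested peaks in either direction. Without the block the adjusted p of a member was lowest, at 0.405, for a Tgfbr3 peak at 16 h after FP.

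At an unadjusted p under 0.05 the members' share was below that of all tested peaks in most comparisons, on small counts. At 0.75 h after IL2 it was 3.62% (5 of 138), against 5.74% of all tested peaks. With the replicate block the count there was 10 of 138, against 7.65%. The share was 2.17% (3) at 16 h after IL2, against 3.62%, and 1.45% (2) at 16 h after FP, against 5.31%. At 168 h after FP it was 3.62% (5), against 4.54%. For FP against IL2 it was 2.17% (3) at 0.75 h, against 3.66%, and 3.62% (5) at 16 h, against 5.05%. It was higher at 0.75 h after FP, at 7.97% (11 of 138), against 3.15%, and at 72 h, at 9.35% (13 of 139), against 5.21%. But 6 of each lie in 1 intron region of Smad3, so that the 11 and the 13 make 6 and 8 regions. The median log2 fold change over the members was 0.05 for IL2 at 0.75 h, -0.08 for FP at 0.75 h, 0.10 for IL2 at 16 h, -0.02 for FP at 16 h, 0.12 for FP at 72 h and 0.23 for FP at 168 h. All tested peaks had medians of -0.02, 0.01, 0.00, -0.02, -0.03 and -0.01 in the same order.

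**Figure D3:**
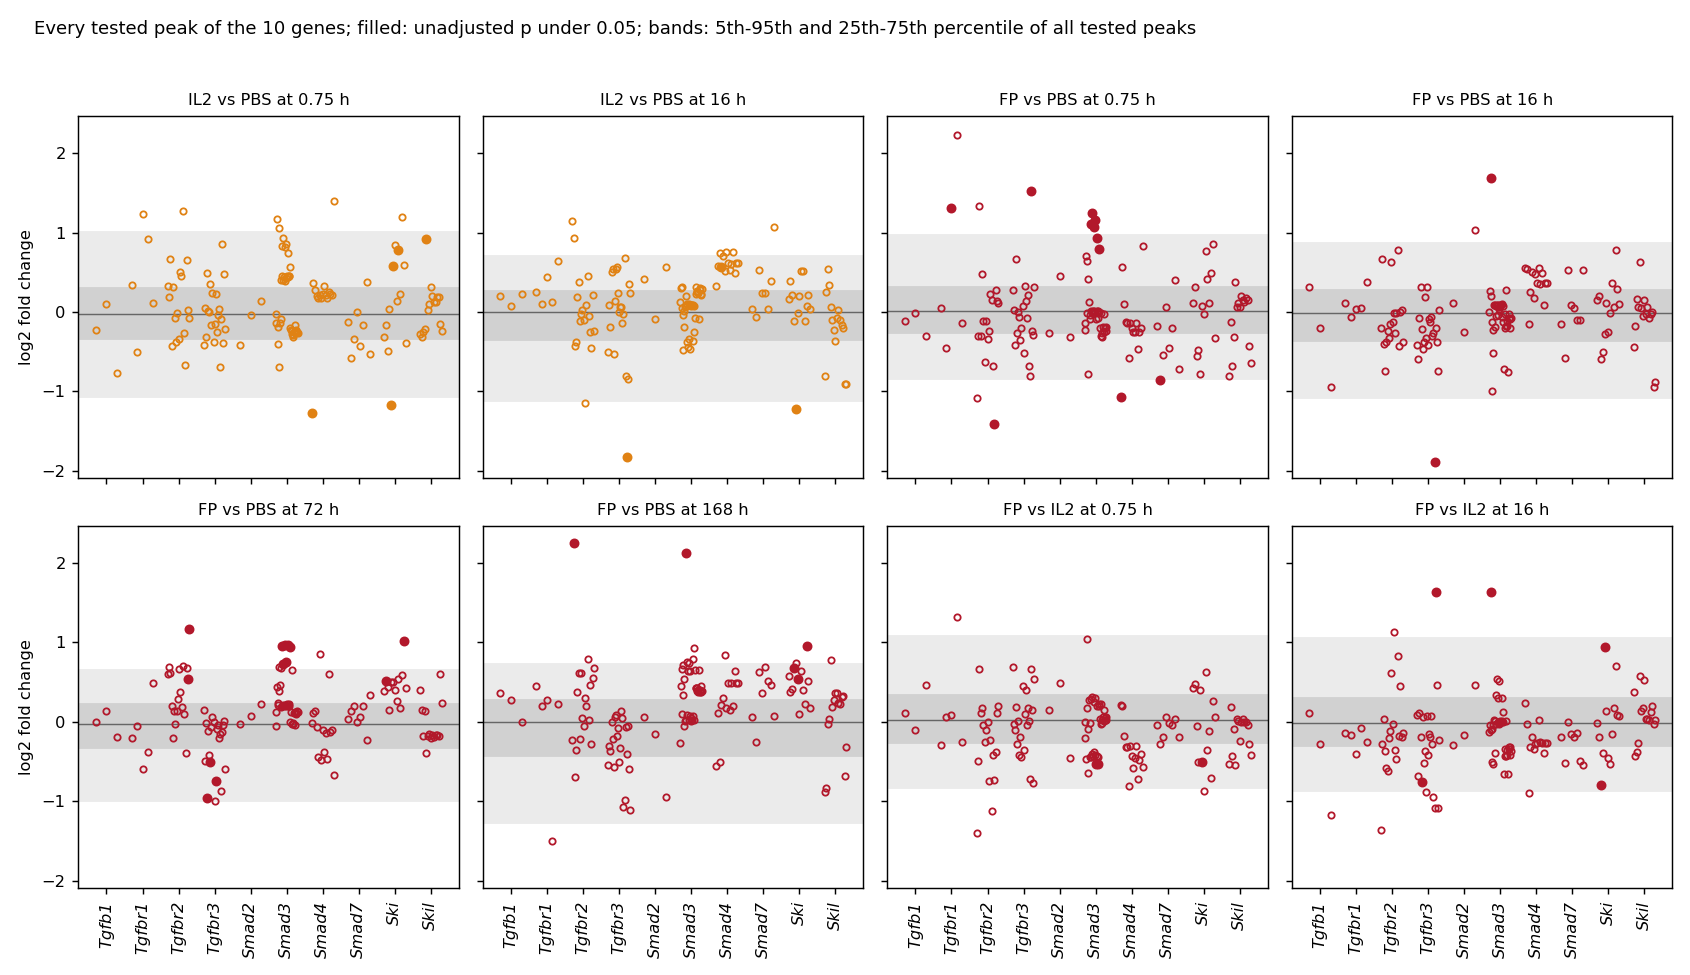
Log2 fold change (y axis) of every tested member peak by gene (x axis) in each of the 8 comparisons. Filled points have an unadjusted p under 0.05, and the grey bands span the 25th to 75th and the 5th to 95th percentile of all tested peaks. At 72 and 168 h after FP all 13 Ski peaks lie above 0.

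Tgfb1, the ligand that Tregs make and display, had no peak with an unadjusted p under 0.05 in any comparison. Its promoter-class peak had 12.6, 12.9 and 9.54 CPM at 0.75 h after FP and 12.1, 13.3 and 12.5 CPM after IL2, against 10.6, 14.5 and 10.2 CPM after PBS. At 16 h it had 14.4, 12.0 and 14.5 CPM after FP and 14.2, 18.5 and 17.0 CPM after IL2, against 18.1, 13.2 and 15.7 CPM after PBS. At both times all 3 groups overlap. A peak downstream of the gene, 20781 bp from its start, was sparse, with 0.155, 0.744 and 1.58 CPM at 16 h after FP and 2.61, 2.00 and 1.16 CPM after IL2, against 2.02, 1.69 and 1.16 CPM after PBS.

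Tgfbr1, the type I receptor gene, had its lowest p in an intron peak 15773 bp into the gene. It had 3.36, 1.56 and 1.45 CPM at 0.75 h after FP and 1.84, 1.35 and 2.81 CPM after IL2, against 0.904, 1.34 and 0.303 CPM after PBS. Both treatments stood above PBS in every library, by 1.31 ± 0.59 for FP and 1.23 ± 0.59 for IL2 on the log2 scale (adjusted p = 1.00 and 0.883). The FP value was 0.83 without FP replicate 1. The Tgfbr1 promoter differed between IL2 and PBS at 0.75 h by -0.53 ± 0.18 with the replicate block (adjusted p = 0.261), against -0.51 ± 0.35 without it (adjusted p = 1.00). At 72 h the groups overlapped at the intron peak, with 0.530, 0.656 and 1.28 CPM after FP, against 0.692, 1.45 and 1.53 CPM after PBS.

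At Tgfbr2, 15 of 18 tested peaks were above 0 at 72 h after FP, with a median of 0.33, and 12 of 18 at 168 h, with a median of 0.25. At 16 h 4 of 18 were above 0, with a median of -0.18. A peak 6403 bp upstream had 4.15, 2.96 and 3.27 CPM in FP libraries at 72 h, against 1.45, 0.814 and 2.19 CPM in PBS libraries. FP stood above PBS in every library, by 1.17 ± 0.38 (adjusted p = 0.930). At 16 h the same peak had 2.48, 1.65 and 1.96 CPM after FP, against 2.73, 2.25 and 2.87 CPM after PBS, and the difference between the 72 h and 16 h effects was 1.57 ± 0.63 (adjusted p = 1.00). A sparse intron peak 73296 bp into the gene had 1.03, 0.849, 0.953 and 0.532 CPM in FP libraries at 168 h, against 0, 0.217 and 0.229 CPM in PBS libraries. The groups did not overlap, and the fitted value of 2.26 ± 0.82 (adjusted p = 0.899) rests on PBS libraries at or near 0.

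Tgfbr3, the co-receptor gene, lay mostly below 0 after FP from 16 h on. Of its 21 tested peaks 4 were above 0 at 16 h (median -0.26), 3 at 72 h (median -0.13) and 4 at 168 h (median -0.31). Over the alternatives 3 to 6 were above 0 at 72 h and 2 to 8 at 168 h. After IL2 9 of 21 were above 0 at 0.75 h and 13 of 21 at 16 h. None was called, and peaks of 1 locus are not independent of each other.

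A Tgfbr3 peak of the deposited class 3' end, which the GENCODE annotation places in an intron 141115 bp from the gene start, had the smallest adjusted p of all members against PBS in the fits without the block. It had 0.465, 0.783 and 0.482 CPM at 16 h after FP and 1.72, 0.965 and 1.04 CPM after IL2, against 2.35, 2.25 and 1.86 CPM after PBS. FP libraries were the lowest and PBS libraries the highest, without overlap, and FP differed from PBS by -1.89 ± 0.57 (adjusted p = 0.405). At 72 h it had 0.655, 1.17 and 0.638 CPM after FP, against 1.55, 1.49 and 1.43 CPM after PBS, again without overlap (-0.87 ± 0.42, adjusted p = 0.930).

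The Tgfbr3 intron peak with the STAT5 letters shown above, 125259 bp into the gene, had 1.19, 4.25 and 4.52 CPM at 0.75 h after FP and 1.67, 1.48 and 3.13 CPM after IL2, against 1.36, 1.19 and 0.909 CPM after PBS. One FP library lay among the PBS values and the others were high, and the log2 fold change was 1.52 ± 0.54 (adjusted p = 1.00). At 16 h it had 2.22, 2.12 and 2.34 CPM after FP and 0.383, 0.666 and 1.08 CPM after IL2, against 1.28, 4.43 and 2.06 CPM after PBS. IL2 libraries were then the lowest, at -1.83 ± 0.54 against PBS (adjusted p = 1.00; -1.22 without PBS replicate c2, the highest library), and FP stood above IL2 by 1.63 ± 0.54 (adjusted p = 0.533). The IL2 effect at 16 h differed from that at 0.75 h by -2.69 ± 0.78 (adjusted p = 0.382). A broader intron peak 87623 bp into the gene had 5.78, 7.56 and 7.12 CPM at 16 h after FP, against 8.70, 12.9 and 13.1 CPM after IL2, a log2 fold change of -0.76 ± 0.29 (adjusted p = 0.756; -0.42 with the library total as a covariate).

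Smad2, which TGFBR1 phosphorylates, had 3 peaks and none with an unadjusted p under 0.05. Its promoter had 46.1, 39.9 and 79.1 CPM in IL2 libraries at 16 h, against 41.0, 38.9 and 43.1 CPM in PBS libraries. The groups overlap, and 1 IL2 library is far above the rest. The log2 fold change of 0.41 ± 0.21 (adjusted p = 1.00) was 0.07 without that library and -0.27 with the library total as a covariate. At 0.75 h the libraries spread widely within each group, with 35.3, 18.1 and 62.0 CPM after FP and 45.6, 15.1 and 43.5 CPM after IL2, against 61.2, 15 and 63.0 CPM after PBS. The low library was replicate 2 in each group.

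Smad3, the other receptor-activated SMAD, has 17 overlapping peaks with centres 36097 to 37076 bp into the gene. They have a strong part and, nearer the gene start, a weaker part that holds the STAT5 letters. In the weaker part the peak shown above had 3.08, 4.25 and 2.67 CPM at 0.75 h after FP and 3.30, 2.69 and 2.24 CPM after IL2, against 1.64, 1.80 and 1.16 CPM after PBS. All 6 treated libraries were above all 3 PBS libraries. The log2 fold changes were 1.11 ± 0.42 for FP (adjusted p = 1.00) and 0.83 ± 0.42 for IL2 (adjusted p = 0.915), and the 95% interval of FP against IL2 ran from -0.56 to 1.13.

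At 16 h this Smad3 peak had 2.22, 3.68 and 4.61 CPM after FP and 2.61, 3.23 and 2.58 CPM after IL2, against 3.59, 2.60 and 4.68 CPM after PBS. The 3 groups overlapped. At 72 h it had 4.06, 5.83 and 6.98 CPM in FP libraries, against 2.41, 2.17 and 3.95 CPM in PBS libraries, again without overlap (0.95 ± 0.32, adjusted p = 0.930). At 168 h it had 4.79, 2.97, 2.98 and 5.32 CPM in FP libraries, against 1.23, 1.59 and 4.01 CPM in PBS libraries, where 1 PBS library lay among the FP values (0.75 ± 0.45, adjusted p = 0.899).

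The strong part of the region, 37058 bp into Smad3, had 7.02, 7.04 and 6.96 CPM at 0.75 h after FP and 11.3, 9.77 and 9.49 CPM after IL2, against 7.89, 7.22 and 7.22 CPM after PBS. IL2 libraries were the highest there, by 0.45 ± 0.25 against PBS (adjusted p = 0.977), and FP was below IL2, at -0.54 ± 0.25 (adjusted p = 1.00). At 72 h the groups overlapped, with 12.0, 14.5 and 21 CPM in FP libraries, against 11.0, 10.7 and 18.4 CPM in PBS libraries. The parts of this region thus had different orders of the groups at 0.75 h, and the difference between the parts was not tested.

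Over the whole Smad3 locus 32 of 38 peaks were above 0 at 72 h after FP (median 0.20) and 36 of 38 at 168 h (median 0.40), but both medians move with single libraries. Without FP replicate 3 at 72 h the median was -0.05 and 15 of 38 peaks were above 0. Without PBS replicate 1 at 168 h it was 0.10, and 19 of 38 were above 0 with the library total as a covariate. A small promoter-class peak in an exon, 45930 bp into the gene, had 1.5, 3.41 and 3.89 CPM at 16 h after FP and 1.11, 1.13 and 0.602 CPM after IL2, against 1.61, 0.562 and 0.503 CPM after PBS. The lowest FP library lies under the highest PBS one, and the log2 fold changes were 1.69 ± 0.58 for FP over PBS (adjusted p = 0.581) and 1.64 ± 0.57 for FP over IL2 (adjusted p = 0.618). The value over PBS ran from 1.04, with the library total as a covariate, to 2.46, without PBS replicate c1.

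Smad4 had a promoter-class peak in an intron, 60583 bp into the gene, at which both treatments were low at 0.75 h. It had 1.41, 2.01 and 0.814 CPM after FP and 0.987, 1.52 and 1.18 CPM after IL2, against 3.62, 2.53 and 2.78 CPM after PBS. All 6 treated libraries were below all 3 PBS libraries, at -1.07 ± 0.48 for FP (adjusted p = 1.00) and -1.28 ± 0.48 for IL2 (adjusted p = 0.596). At 16 h the groups overlapped, at 2.37, 3.84 and 1.34 CPM after FP and 1.26, 4.26 and 0.915 CPM after IL2, against 1.32, 1.26 and 2.52 CPM after PBS. The 16 h effects differed from the 0.75 h ones by 1.64 ± 0.68 for FP and 1.62 ± 0.69 for IL2 (adjusted p = 1.00 and 0.831).

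Smad7, the feedback inhibitor that TGF-beta is known to induce, had no called peak among its 8. Its strong intron peak had 24.1, 25.6 and 23.0 CPM at 0.75 h after FP and 23.0, 22.8 and 24.1 CPM after IL2, against 28.7, 23.0 and 17.8 CPM after PBS. At 72 h it had 26.8, 32.9 and 39.0 CPM in FP libraries, against 31, 28.0 and 38.7 CPM in PBS libraries. The groups overlap at both times. The lowest p of the gene was at a peak 3099 bp into it, with 3.05, 2.30 and 2.26 CPM at 0.75 h after FP and 3.56, 2.69 and 2.97 CPM after IL2, against 5.51, 3.04 and 5.25 CPM after PBS (FP -0.86 ± 0.37, adjusted p = 1.00).

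Ski, which encodes a repressor of SMAD target genes, had all 13 of its peaks above 0 at 72 h and again at 168 h after FP. The median log2 fold changes were 0.44 and 0.51. At 0.75 h after FP 8 of 13 were above 0 (median 0.11) and at 16 h 8 of 13 (median 0.10). Over the alternatives the number above 0 ran from 11 to 13 at both late times, and the medians from 0.29 to 0.70 at 72 h and from 0.32 to 0.62 at 168 h. No peak was called, and the 13 are not independent values. Peaks above 0 at these times were not particular to Ski. Of 64 tested peaks of 7 general T cell marker genes, 47 were above 0 at 72 h (median 0.12) and 53 at 168 h (median 0.43). Of 164 peaks of the Treg markers, 102 were above 0 at 72 h (median 0.15) and 96 at 168 h (median 0.04). The Ski promoter itself had 25.8, 18.5, 24.5 and 26.4 CPM in FP libraries at 168 h, against 20.4, 21 and 19.7 CPM in PBS libraries, with overlap.

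The Ski intron peak shown above, 21601 bp into the gene, had 17.2, 19.3 and 12.2 CPM at 0.75 h after FP and 24.8, 22.2 and 22.1 CPM after IL2, against 14.2, 17.5 and 14.5 CPM after PBS. The IL2 libraries stood clear of PBS, by 0.58 ± 0.23 (adjusted p = 0.644), and FP was below IL2, at -0.50 ± 0.22 (adjusted p = 1.00). At 16 h all groups overlapped, with 13.9, 20.1 and 19.3 CPM after FP and 16.8, 14.5 and 17.5 CPM after IL2, against 18.5, 13.9 and 16.6 CPM after PBS. At 72 h it had 26.5, 34.9 and 41.6 CPM in FP libraries, against 20.7, 17.0 and 34.0 CPM in PBS libraries, with overlap. At 168 h it had 36.8, 26.0, 28.2 and 33.5 CPM in FP libraries, against 20.7, 20.8 and 22.7 CPM in PBS libraries. All 4 FP libraries were then above all 3 PBS libraries, by 0.53 ± 0.17 (adjusted p = 0.899).

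The peak upstream of Ski, 12809 bp before its start, had 2.99, 2.53 and 1.54 CPM at 0.75 h after FP and 5.58, 3.08 and 2.93 CPM after IL2, against 0.493, 4.28 and 0.303 CPM after PBS. PBS replicate 2 was as open as the treated libraries and the other PBS libraries were nearly closed. The IL2 value was 1.20 ± 0.68 (adjusted p = 0.981), or 0.75 without PBS replicate 1 and 0.70 without PBS replicate 3. With the replicate block it was 1.71 ± 0.64 (adjusted p = 0.393). Without PBS replicate 2 it was 3.25 ± 0.61 (adjusted p = 0.0222), the only call of a member peak in the alternatives run. At 16 h it had 3.05, 5.29 and 4.03 CPM after FP and 3.30, 0.998 and 3.37 CPM after IL2, against 2.60, 2.46 and 2.16 CPM after PBS. FP libraries were all above PBS, and IL2 libraries lay on both sides. At 168 h it had 5.57, 2.72, 2.78 and 4.24 CPM in FP libraries, against 1.64, 1.88 and 2.31 CPM in PBS libraries, without overlap (0.95 ± 0.38, adjusted p = 0.899).

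Other Ski intron peaks with low p-values went both ways. The one 27227 bp into the gene had 1.34, 3.28 and 2.26 CPM at 0.75 h after FP and 1.59, 2.65 and 1.02 CPM after IL2, against 2.51, 6.24 and 3.08 CPM after PBS. At 16 h it had 4.08, 3.53 and 3.51 CPM after FP and 1.03, 1.26 and 3.44 CPM after IL2, against 3.64, 4.78 and 5.03 CPM after PBS. IL2 was below PBS, at -1.18 ± 0.50 at 0.75 h and -1.22 ± 0.43 at 16 h (adjusted p = 0.745 and 1.00), without overlap at 16 h. The first value was -0.67 without PBS replicate 2, and the second -1.95 without IL2 replicate c3. The one at 24626 bp had 4.71, 7.18 and 9.31 CPM in FP libraries at 72 h, against 2.70, 2.71 and 4.83 CPM in PBS libraries (1.02 ± 0.33, adjusted p = 0.930), with the lowest FP library just under the highest PBS one. The one at 44126 bp had 10.3, 9.51, 11.8 and 12.8 CPM in FP libraries at 168 h, against 5.61, 7.60 and 7.36 CPM in PBS libraries, without overlap (0.68 ± 0.23, adjusted p = 0.899).

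Skil, the SKI relative that TGF-beta signalling is known to degrade, had 5 of 15 peaks above 0 at 72 h after FP (median -0.17) and 10 of 15 at 168 h (median 0.23). Its promoter had 43.4, 42.9, 40.6 and 44.5 CPM in FP libraries at 168 h, against 46.7, 38.8 and 44.4 CPM in PBS libraries. The groups overlap closely, and the 95% interval of the log2 fold change ran from -0.33 to 0.28. An exon peak 5158 bp into the gene had 2.57, 3.66 and 3.53 CPM at 0.75 h after FP and 5.36, 3.95 and 4.93 CPM after IL2, against 3.74, 2.32 and 1.41 CPM after PBS. IL2 libraries were the highest there (0.92 ± 0.40, adjusted p = 0.784).

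**Figure D4:**
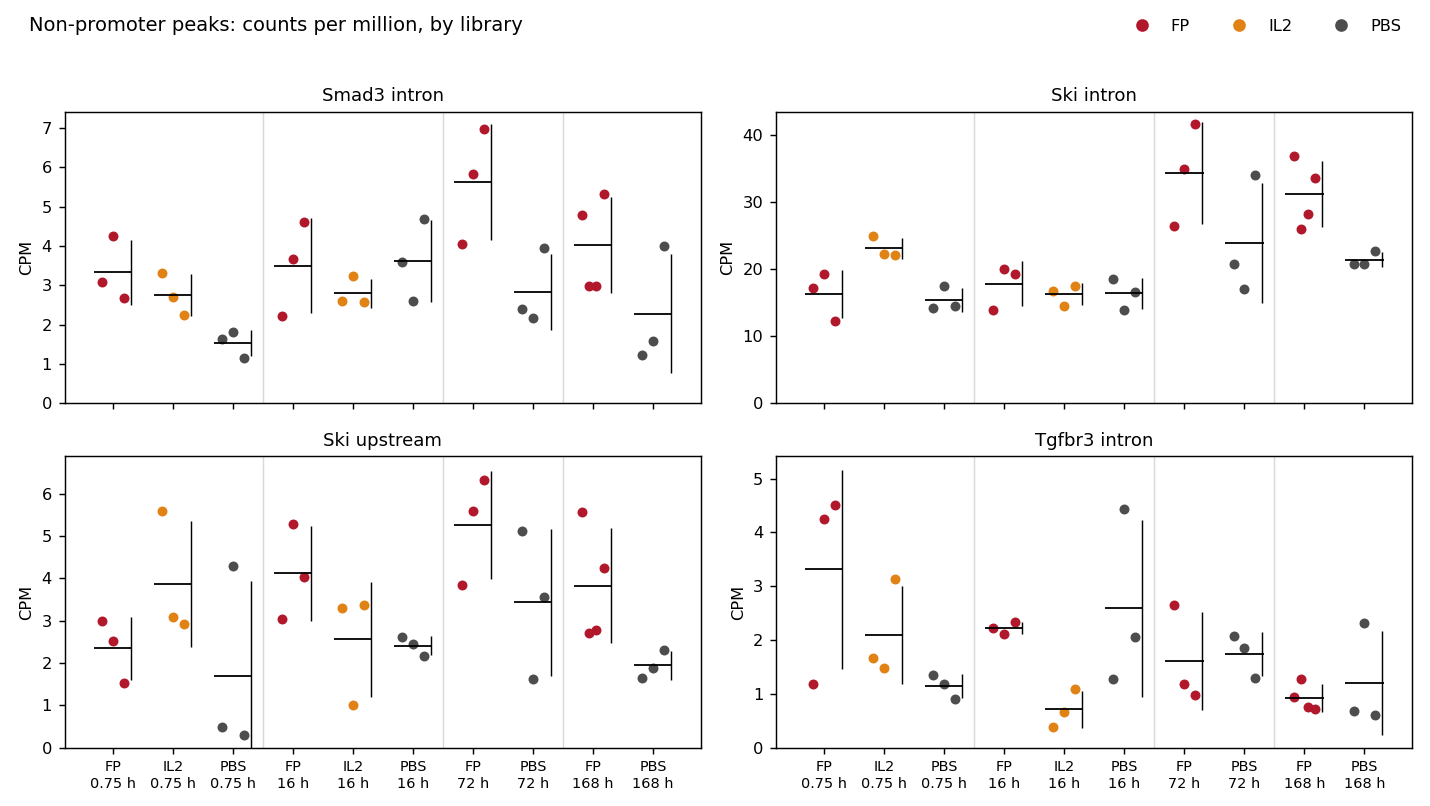
CPM (y axis, linear from 0) of 4 non-promoter peaks that hold the STAT5 letters, in every library, by group on the x axis. Points are libraries, horizontal lines group means and vertical lines ± 1 SD, cut at 0. The Smad3 peak stands above PBS at 0.75 and 72 h, and the Ski intron peak does so at 0.75 h in IL2 libraries and at 168 h in FP libraries.

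IL2 stood above PBS in every library at 25 of 138 member peaks at 0.75 h, against 6.47% of all tested peaks. Of the 25, 15 are overlapping peaks of the Smad3 intron region, and the 25 make 11 of 93 regions. IL2 stood below PBS at 2 (5.0%). At 0.75 h FP stood above PBS at 10 (4.84%) and below at 8 (3.58%). Of these 10, 6 lie in the Smad3 intron region, and the 10 make 5 of 93 regions. At 16 h IL2 stood above PBS at 12 (4.74%) and below at 4 (4.33%), and FP above at 2 (6.92%) and below at 5 (5.46%). Of the 12, 10 are peaks of Smad4, and the 12 make 6 of 93 regions. The 10 that follow for FP at 72 h make 7 of 94 regions. FP stood above PBS at 10 of 139 at 72 h (6.21%) and below at 7 (5.31%), and above at 9 of 138 at 168 h (3.55%) and below at 2 (2.69%). FP stood above IL2 at 4 (4.45%) and below at 15 (4.9%) at 0.75 h, 10 of the 15 in the Smad3 intron region, and above at 6 (5.55%) and below at 10 (5.01%) at 16 h.

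Over the whole table the STAT5 letters went with rises. At 0.75 h after IL2 3.02% of tested peaks with TTCNNNGAA rose, against 0.0831% of those without it. Of the 22 member peaks with it 0 were called, and 22 peaks are too few to tell 0 from such a share. The median log2 fold change was 0.57 for those 22 and 0.01 for the other members, against 0.14 and -0.05 for all tested peaks with and without the letters. At 16 h after IL2 the 22 had a median of -0.03 and the other members 0.21. After FP the 22 had medians of 0.34, -0.05, 0.34 and 0.45 at 0.75, 16, 72 and 168 h, and the other members -0.14, -0.02, 0.11 and 0.19. Of the 22, 6 lie in the Smad3 intron region and share reads.

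For the differences between times 0 of 140 member peaks were called. Among all 104520 tested peaks 0.0411% fell for the IL2 effect at 16 h against 0.75 h, and 0.000957% for the FP effect at 72 h against 16 h. The FP effect at 16 h against 0.75 h and at 168 h against 72 h gave 0.0% in either direction. At an unadjusted p under 0.05 there were 6 member peaks for IL2 (5.26% of all tested peaks), and 4 (3.52%), 4 (2.97%) and 0 (1.46%) for FP in order of time.

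A further 50 genes of the pathway, 48 of them with a peak, were counted in 5 lists. The 11 genes of ligand maturation and activation (92 peaks, among them those of Lrrc32, whose product GARP holds latent TGF-beta on Tregs), the 10 receptors and co-receptors (29 peaks) and the 4 other SMADs (11 peaks) had 0 peaks called in each of the 8 comparisons. The 15 SMAD partners and regulators (153 peaks) and the 10 targets known in T cells (140 peaks) had 1 called peak each, at Nedd4l and at Ldlrad4, and no list had a fall. These were 1 of 152 and 1 of 138 tested peaks at 0.75 h after IL2, shares near the 0.488% of all tested peaks that rose. At 16 h 1 of 152 partners and regulators rose for FP over PBS, against 0.114% of all tested peaks. For FP over IL2 at 16 h 1 of 152 and 1 of 139 rose, against 0.141%. With the replicate block the targets had 2 at 0.75 h after IL2, the further one being a peak of Foxp3 at 1.02 ± 0.22 (adjusted p = 0.0176, against 0.0964 without the block). At 0.75 h after IL2 the list medians were 0.03 for ligand maturation, -0.24 for receptors, 0.12 for other SMADs, -0.04 for partners and regulators and 0.01 for targets, against -0.02 for all tested peaks.

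Nedd4l encodes a ubiquitin ligase that targets activated SMAD2 and SMAD3. Its intron peak at chr18:65007438-65008515 had 27.2, 27.6 and 13.9 CPM at 0.75 h after FP and 28.5, 33.4 and 29.8 CPM after IL2, against 11.9, 10.2 and 10.9 CPM after PBS. All treated libraries were above all PBS libraries. It rose after IL2 by 1.47 ± 0.25 (adjusted p = 0.00794), and the value for FP was 1.05 ± 0.25 (adjusted p = 0.332). With the replicate block the FP rise was called as well (adjusted p = 0.0494), as were rises at 0.126% of all tested peaks. The replicate numbers were not taken to pair FP and PBS samples. Without PBS replicate 3 the IL2 call was lost (1.45, adjusted p = 0.0630). At 16 h it had 32.8, 33.3 and 25 CPM after FP and 9.69, 9.55 and 6.14 CPM after IL2, against 8.76, 7.10 and 6.84 CPM after PBS. The FP libraries stood far above both other groups. The peak rose in FP over PBS by 2.00 ± 0.25 (adjusted p = 0.000767) and over IL2 by 1.85 ± 0.25 (adjusted p = 0.0013). At 72 h it had 17.6, 18.7 and 20.9 CPM in FP libraries, against 9.06, 9.23 and 9.85 CPM in PBS libraries, without overlap (1.00 ± 0.17, adjusted p = 0.683). At 168 h the groups overlapped, with 10.6, 11.0, 10.1 and 6.69 CPM after FP, against 5.61, 8.91 and 9.19 CPM after PBS.

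Ldlrad4 encodes a membrane protein that TGF-beta induces and that keeps SMAD2 and SMAD3 from the receptor. Its intron peak at chr18:68170297-68170740 had 2.99, 2.40 and 2.03 CPM at 0.75 h after FP and 5.49, 2.69 and 4.93 CPM after IL2, against 0.740, 0.825 and 1.11 CPM after PBS. All treated libraries were above all PBS libraries. It rose after IL2 by 2.29 ± 0.45 (adjusted p = 0.0222), a call that was lost without IL2 replicate 1 or 3 and without each PBS replicate (adjusted p = 0.0773 to 0.136), while the fold stayed between 2.09 and 2.47 in those fits. At 16 h it had 8.46, 4.98 and 6.81 CPM after FP and 0.996, 0.366 and 1.56 CPM after IL2, against 1.69, 1.41 and 1.41 CPM after PBS. FP libraries were above all others. The peak rose in FP over IL2 by 2.78 ± 0.46 (adjusted p = 0.00744), or by 2.59 without FP replicate c1 (adjusted p = 0.0787), and the value over PBS was 2.16 ± 0.46 (adjusted p = 0.0621). At 168 h FP libraries had 1.58, 0.679, 1.10 and 0.208 CPM, against 2.05, 3.04 and 1.42 CPM in PBS libraries, with overlap.

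In the fits without the block Nedd4l was called in 3 comparisons, and a peak of the erythroid gene Hbb-bt was called in 2 of them. With the block both were also called for FP over PBS at 0.75 h (adjusted p = 0.0112 for Hbb-bt). The Hbb-bt peak had 12.2 to 19.7 CPM in IL2 libraries at 0.75 h, against 3.04 to 3.99 CPM in PBS libraries. Its level at 16 h was 9.50 to 16.9 CPM in FP libraries and 1.92 to 4.49 CPM in IL2 libraries, against 4.08 to 6.04 CPM in PBS libraries. It rose in FP over IL2, and FP over PBS, the comparison with the lowest adjusted p of Nedd4l, gave 1.44 ± 0.34 (adjusted p = 0.119). All 6 erythroid markers have a peak, and the median log2 fold change of their 33 tested peaks was -0.31 for IL2 over PBS at 0.75 h (14 above 0), 0.08 for FP over PBS at 16 h (28 above 0) and 0.57 for FP over IL2 at 16 h (29 above 0). Over all 35 peaks they summed to 95.8 to 132 CPM in IL2 libraries at 0.75 h, against 85.4 to 106 CPM in PBS libraries. At 16 h they summed to 98.6 to 169 CPM in FP libraries and 74.8 to 106 CPM in IL2 libraries, against 84.5 to 124 CPM in PBS libraries. Of the 7 myeloid markers 4 have a peak, and their 13 peaks had a median of 0.86 for FP over PBS at 16 h (8 above 0, 0 called). They summed to 24.7 to 35.7 CPM in FP libraries and 22.5 to 31.8 CPM in IL2 libraries, against 20.5 to 24.3 CPM in PBS libraries, so that FP did not overlap PBS. The 16 peaks of the NK markers had a median of 0.54 there (11 above 0, 0 called), with sums of 114 to 144 CPM in FP libraries, against 77.4 to 115 CPM in PBS libraries. For IL2 over PBS at 16 h the myeloid median was 0.70 (11 of 13 above 0), and Nedd4l stood at 0.15 ± 0.24. For IL2 over PBS at 0.75 h the medians were -0.23 for myeloid (3 of 12 above 0), -0.08 for NK, -0.49 for CD8 T and -0.28 for B cell markers. Treg marker peaks had a median of 0.25 there (104 of 162 above 0). Of the 162, 3 rose, against 0.488% of all tested peaks. With the replicate block 6 of the 162 rose, against 0.937% of all tested peaks. The part of other cells in the Nedd4l and Ldlrad4 values was not tested.

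**Figure D5:**
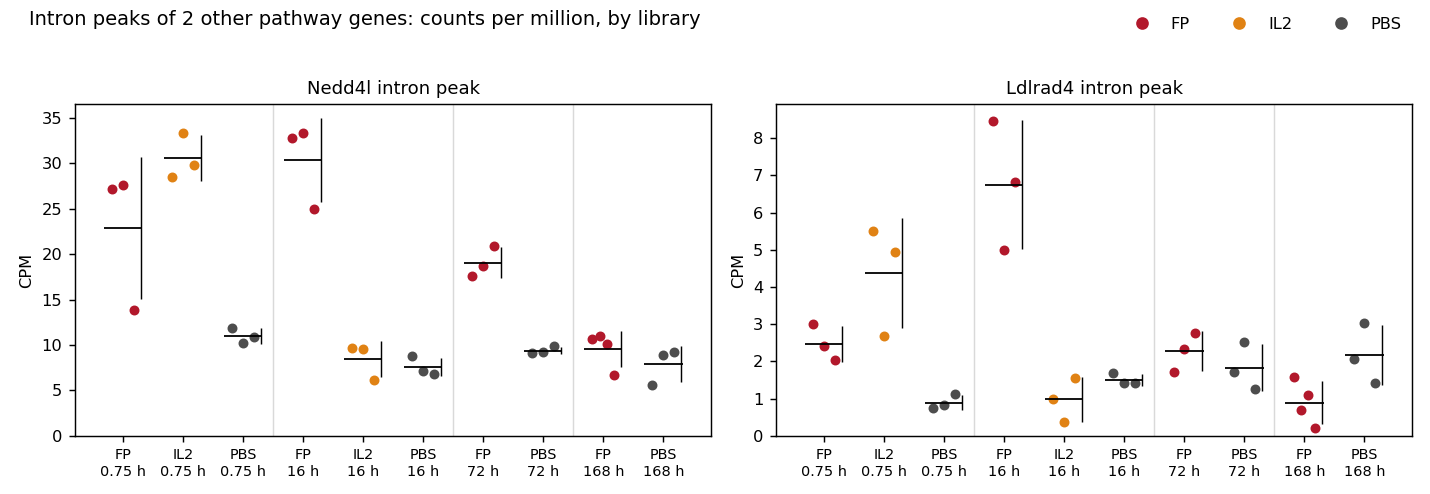
CPM (y axis, linear from 0) of the intron peaks of Nedd4l and Ldlrad4 in every library, by group on the x axis. Points are libraries, horizontal lines group means and vertical lines ± 1 SD. At 0.75 h both treatments lie above PBS, at 16 h FP lies above IL2 and PBS, and at 72 h FP lies above PBS at Nedd4l.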

How the data were processed

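ATAC-seq was read from 31 libraries of mouse spleen Tregs. Reads were mapped with BWA to GRCm38 and peaks called with MACS2 2.1.2, per the submitters' processing notes. The values are the authors' deposited raw counts per peak, and no source used here names the read counter. The technical replicates that the labels mention are not separate columns. Times after 0.75 h come from titles and column names, since the treatment protocol gives 0.75 h for every sample. Columns at 16 h were matched to groups and not to samples, and are called c1 to c3.

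Counts were tested with edgeR 4.0.16 (R 4.3.3; TMM scaling, filterByExpr with minimum counts of 10 and 15, quasi-likelihood test, Benjamini-Hochberg threshold 0.05), all groups of a time in 1 fit and differences between times in a fit of all 31 libraries. CPM use TMM factors. DESeq2 1.42.0 was an alternative. Replicates of a group differed beyond counting noise (chi-square per degree of freedom 5.4 to 36.5), so none was merged. For IL2 and PBS at 0.75 h all 3 same-numbered pairs deviated together from their group means (correlations 0.11 to 0.313), so the numbers pair these samples by the data and not by the labels. The fit without the block is the main one, and the blocked value stands beside a result whose count or call it changes. Tested on simulated data, the fit at 0.75 h for IL2 called 66% of 4-fold and 6% of 2-fold changes, and at 168 h for FP 45% and 3%. The changed peaks had a mean log2 CPM above 1, so these rates do not cover the sparser member peaks. Genes and exons are those of GENCODE M21. Peaks were named by rule: the promoter-class and the other peak of each gene with the highest mean CPM in PBS, the 3 lowest p-values of each comparison and the lowest of each gene against PBS. The members, lists and this rule were chosen with earlier results of these data known.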

Additional observations from a re-analysis of the deposited data

Results flagged for a closer look

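Of the 39 named member peaks, 2 had a library far from the others of its group in the 168 h FP group, and both times it was FP replicate 2. The outlier cutoff was set for groups of 4 libraries, and only the 168 h FP group has 4. Both flags rest on 1 library and are not independent of each other. The Tgfb1 promoter-class peak had 7.30 CPM there, against 16.3 to 17.8 CPM in the other FP libraries. The Tgfbr2 promoter had 11.8 CPM there, against 20.8 to 22.2 CPM. Chance flags about 1 in 20 such groups, and this library is one of the pair that correlated least with the rest.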

How the results depend on the processing

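The alternatives were DESeq2, library totals as scaling, no low-count filter, the 2 compared groups only, all 31 libraries in 1 fit, the library total as a covariate, the replicate block, each replicate left out in turn and, chosen after seeing the data, the 168 h fit without the pair of libraries that stands apart. The number of member peaks called was 0 in every comparison under each of these, except that with a replicate left out it ran from 0 to 1 for IL2 at 0.75 h, the 1 being the peak upstream of Ski without PBS replicate 2. The Smad2 promoter at 16 h after IL2 turned to -0.27 with the library total as a covariate, and the cause was not tested. The Ldlrad4 calls were also lost with that covariate, for IL2 at 0.75 h (2.19, adjusted p = 0.0959) and for FP against IL2 at 16 h (2.84, adjusted p = 0.112), with folds close to the 2.29 and 2.78 of the fits without it. Nedd4l ranged from 1.35 to 1.53 for IL2 at 0.75 h and from 1.93 to 2.12 for FP at 16 h over the alternatives. Over all peaks, edgeR and DESeq2 called 499 and 1094 for IL2 at 0.75 h, 2 and 209 for FP at 0.75 h, 0 and 1 for IL2 at 16 h, 115 and 444 for FP at 16 h, 0 and 122 for FP at 72 h, 0 and 11 for FP at 168 h, 0 and 5 for FP against IL2 at 0.75 h, and 142 and 485 for FP against IL2 at 16 h.

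With the replicate block 0 member peaks were called at 0.75, 72 and 168 h, while over all peaks the block gave 983 calls for IL2 and 129 for FP at 0.75 h. Beside the counts given with the results, the block changed no other call of a member or pathway list for IL2 at 0.75 h. For FP over PBS at 0.75 h it added 1 call in these lists, the Nedd4l peak. Correlations of same-numbered libraries ran from 0.0095 to 0.346 for FP and PBS at 0.75 h, 0.0199 to 0.24 for FP and IL2, -0.235 to 0.619 at 72 h and -0.231 to 0.454 at 168 h, so the numbers were not taken to pair those samples, although at 0.75 h differently numbered libraries ran only from -0.314 to 0.0791. No paired analysis was possible at 16 h because the columns carry no replicate number that the labels match. In the simulated data, which kept the depth of these libraries and their fitted spread, most 2-fold changes were not called.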
